A study of Homo sapiens with 10 samples.

Results

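H460 cells that had survived an anticancer drug were compared directly with H460 cells grown as tumor spheroids (TS). H460 is an established human lung cancer line. Of the 10 sequenced cultures in the series, 5 were compared, namely 1 culture each of cisplatin-resistant (CR), doxorubicin-resistant (DR) and TS cells and 2 of paclitaxel-resistant (PR) cells. The samples were chosen by their labels, which name the drug or the sphere culture, and no measured value was used. The labels call the TS culture a CTC (circulating tumor cell) culture. For the drug-survived cultures, H460 cells were exposed for 3 days to 4 µM cisplatin, 5 nM paclitaxel or 0.5 µM doxorubicin, kept for 3 more days in fresh serum medium and replated, and RNA of the attached cells was collected on day 8. TS cells were kept in suspension on coated plates in serum-free medium with B27, bFGF and EGF, were passaged, and were collected on day 29. The groups thus differed in drug, serum, attachment and time in culture, and these cannot be told apart. The 3 parental cultures of attached H460 cells in serum medium were not part of the comparison. Their values are given where they show on which side a difference lay.

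Poly(A) RNA was sequenced, and a read count and an FPKM (fragments normalized for transcript length and library size) were deposited for each of 46427 genes. The counted reads numbered between 59499787 and 89541774 in the drug-survived libraries and 62073451 in the TS library. Keratins KRT8, KRT18 and KRT19 stood at an FPKM of 138 or above in all 5 libraries, whereas the epithelial markers EPCAM and CDH1 were at 0.103 or below. Of 6 leukocyte, 4 endothelial and 3 squamous markers, 5, 4 and 3 were under an FPKM of 1 in all 5 libraries, and CD14 was the exception. Among 7 fibroblast markers, the matrix proteoglycan LUM stood at an FPKM of 26.6 in TS cells and between 0.362 and 6.99 in drug-survived cells, with an adjusted p of 0.0653 in the edgeR test described below. PDGFRB and COL1A1 of the same list were called higher in drug-survived cells, at 4.24 to 7.06 against 1.63 and at 0.783 to 6.51 against 0.051 (edgeR adjusted p = 0.0143 and 0.0492). The summed FPKM of the fibroblast markers was between 10.3 and 26.8 in drug-survived cells and 29.6 in TS cells. In a culture, fewer cells of a kind and less RNA per cell cannot be told apart.

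The drugs act differently. Cisplatin links DNA bases to each other, doxorubicin traps topoisomerase II on DNA, and paclitaxel freezes microtubules so that chromosomes are not pulled apart. Cells that outlive such treatment often stop dividing, enlarge and secrete many proteins, a state driven partly by the tumor suppressor p53. Spheroids are grown without attachment and often without serum, which carries the lipoproteins that attached cultures take up.

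Of 21264 genes with enough reads to be tested, 4313 differed between the 4 drug-survived libraries and the TS library. The test was the quasi-likelihood test of edgeR on read counts, with a Benjamini-Hochberg adjusted p under 0.05 as the threshold. In drug-survived cells 2171 genes were higher (10.2% of those tested) and 2142 were lower (10.1%), and 3533 of the 4313 were more than 2-fold apart. The shares of 10.2% and 10.1% are the background for the counts of called genes in every list below. With upper-quartile scaling of the libraries, 62.9% of the called genes were higher, against 50.3% with the scaling used here. Over all tested genes the median log2 fold change was 0.42 with that scaling and 0.23 here. The spread came from the drug-survived libraries alone, with 3 residual degrees of freedom, so that it included the differences between the drugs, and the TS library was assumed to vary as they did. The labels do not say that the libraries came from separate cultures, and p-values measure only the spread between these libraries.

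A second rule needed no test. Every drug-survived library had to be more than 2-fold from TS on log2(FPKM + 1), a scale that understates changes of low genes. It found 643 genes higher (3.02% of those tested) and 664 lower (3.12%), of which 1268 of 1307 also passed the test. With upper-quartile scaling it found 1093 higher and 329 lower, and with a pseudocount of 0.1 in place of 1 it found 1899 and 1034. The drug-survived libraries were more alike than any of them was to TS. Between 62 and 406 genes were more than 2-fold apart between drug-survived libraries, and between 2113 and 2833 genes between a drug-survived library and TS. For single drugs, 1071 genes (5.04%) were more than 2-fold above TS in CR cells and 1322 (6.22%) were below. In the mean of the PR libraries 1369 genes (6.44%) were above and 1036 (4.87%) below, and in DR cells 1034 (4.86%) were above and 1079 (5.07%) below.

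The forms in which the libraries are named split the cultures. The TS and the first PR library carry names of one form, and the CR, DR and second PR libraries carry names of another. Parental replicates 1 and 3 share the form of TS, and parental replicate 2 has the other. Whether the form marks a sequencing batch is not stated. When the form entered the fit as a covariate, 806 genes were called, 548 higher and 258 lower. The fold change of that fit compared the TS library with the first PR library alone. The other drug-survived libraries added only to the estimate of spread. All counts given with the covariate carry this limit. Within the form shared with TS, the first PR library alone was more than 2-fold above TS for 1212 genes and below TS for 917. Leaving out the DR library lowered the number of called genes to 2662 (1363 higher and 1299 lower). Of 102 called genes chosen by the naming rule, 47 were no longer called with the covariate, among them CDKN1A, RRM2, FN1, PSAP, HK1, PHGDH, S100A4, MKI67 and SEZ6L2, all with the same direction. Leaving out single libraries ended the call of 20 of them in the same direction, with adjusted p between 0.0506 and 0.0949. Without DR these were MCM10 and RRM2, and without DR or PR replicate 2 COL4A1, GCLM, MYC and SOX2. The call of AKR1C1 ended without any of the 4 libraries, that of CENPF, MKI67 and SESN2 without any but PR replicate 1, and that of COL1A1, IFIT2, ITGB3, ITGB6, MYLIP and PSAT1 without any but CR. CA9 lost it without either PR library, MX2 without PR replicate 2, and SNAI2 without PR replicate 1.

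Counted over all called genes, most of the difference lay on the drug side. Not every list below followed this. Among called cholesterol synthesis, YAP and SRF, hypoxia and glycolysis and stem cell genes, the parental mean was more often nearer to the drug-survived cells. The mean of the parental libraries was nearer to TS than to the drug-survived cells for 1702 of the 2171 genes called higher (78.4%) and 1635 of the 2142 called lower (76.3%). Between TS and single parental libraries 534 to 873 genes were more than 2-fold apart, and between parental libraries 344 to 784. Parental replicates 1 and 3 share the form of library name with TS, as PR replicate 1 alone of the drug-survived libraries does. The part of the form in this was not tested.

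**Figure D1:**
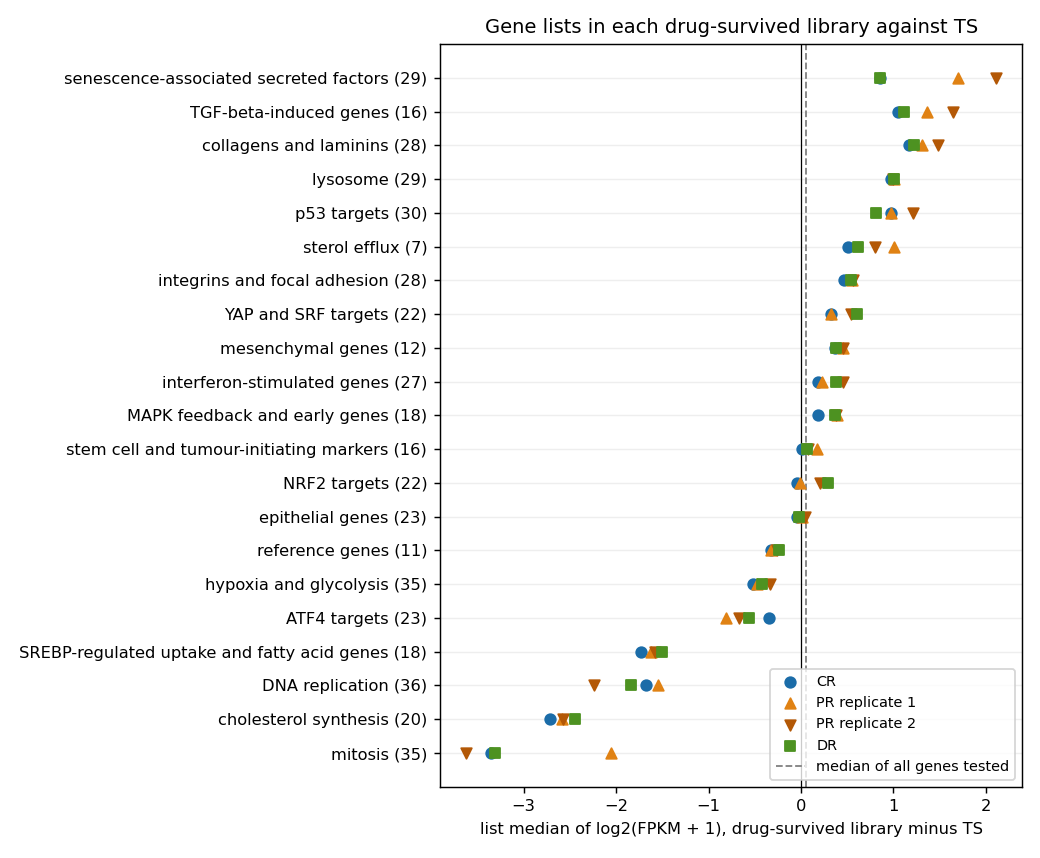
Each point is the median, over the genes of a list (number in brackets), of log2(FPKM + 1) in 1 drug-survived library minus TS, and the dashed line is the median of all genes tested in the mean of the drug-survived libraries (0.057). The 4 libraries lie on the same side of 0 for all lists except NRF2 targets and epithelial genes; the mitosis medians are at -2.05 in PR replicate 1 and between -3.31 and -3.62 in the other 3 libraries.

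Among the genes furthest above TS was MMP1. This collagenase, which cuts fibrillar collagen (chr11:102789919-102798160, GRCh38), stood at an FPKM of 182 in CR, 220 and 364 in PR and 45.2 in DR cells, against 0.144 in TS cells. DR cells had the lowest drug-survived value, which was still far above TS. The groups did not overlap, as the choice of the genes furthest from TS required. Its log2 fold change was 10.24 ± 1.61 (SE, n = 4 and 1, edgeR adjusted p = 0.0107). In parental cells it was between 0.478 and 1.3.

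IGFBP7, a secreted binder of insulin-like growth factors, rose from an FPKM of 0.644 in TS cells to 204 in CR, 121 and 182 in PR and 134 in DR cells, with 14.4 to 14.7 in parental cells. Drug-survived and TS values lay on either side of the parental values, without overlap. The log2 fold change was 7.85 ± 0.58 (edgeR adjusted p = 0.002). CRYAB, a small heat shock protein that binds unfolded proteins, had an FPKM of 93.1 in CR, 249 and 332 in PR and 87.7 in DR cells and 0.396 in TS cells. Both PR values were above those of the other drugs, and all 4 exceeded TS by a log2 fold change of 8.75 ± 1.28 (edgeR adjusted p = 0.0094).

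The receptor tyrosine kinase AXL was at an FPKM of 9.74, 9.62, 12.1 and 11.8 in CR, PR replicate 1, PR replicate 2 and DR cells and at 0.04 in TS cells (log2 fold change 7.88 ± 0.35, edgeR adjusted p = 0.000969). The drug-survived values were close to each other. Parental cells, at 4.87 to 7.33, were nearer to the drug-survived cells, so that here the TS library stood apart. The same held for COL12A1, a fibril-associated collagen, with an FPKM of 26 to 43.6 in drug-survived, 0.1 in TS and 5.04 to 18.5 in parental cells.

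The remaining genes of this group were ABI3BP, PLA2R1, CPA4, TMEM59L, OLFML3 and MEGF6, with log2 fold changes from 6.28 to 8.9, and HLA-G. The carboxypeptidase CPA4 varied most between the drugs, from an FPKM of 12 in PR replicate 1 to 68.3 in DR cells, against 0.223 in TS cells. HLA-G, a nonclassical class I molecule, had no read in TS cells and 941 to 1467 reads in drug-survived cells. It was at least 288-fold higher, taking 3 reads as the limit that a count of 0 in the TS library allows. A deposited count may not be 1 independent fragment, so this and the other limits of this kind are approximate. HLA class I genes share sequence, 2 of the 3 parental libraries also had no read of HLA-G, and its counts are uncertain to that extent. With the parental libraries in the fit HLA-G was no longer called. The same held with CR, PR, DR, TS and parental libraries as groups. Its direction was kept in both fits.

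**Figure D2:**
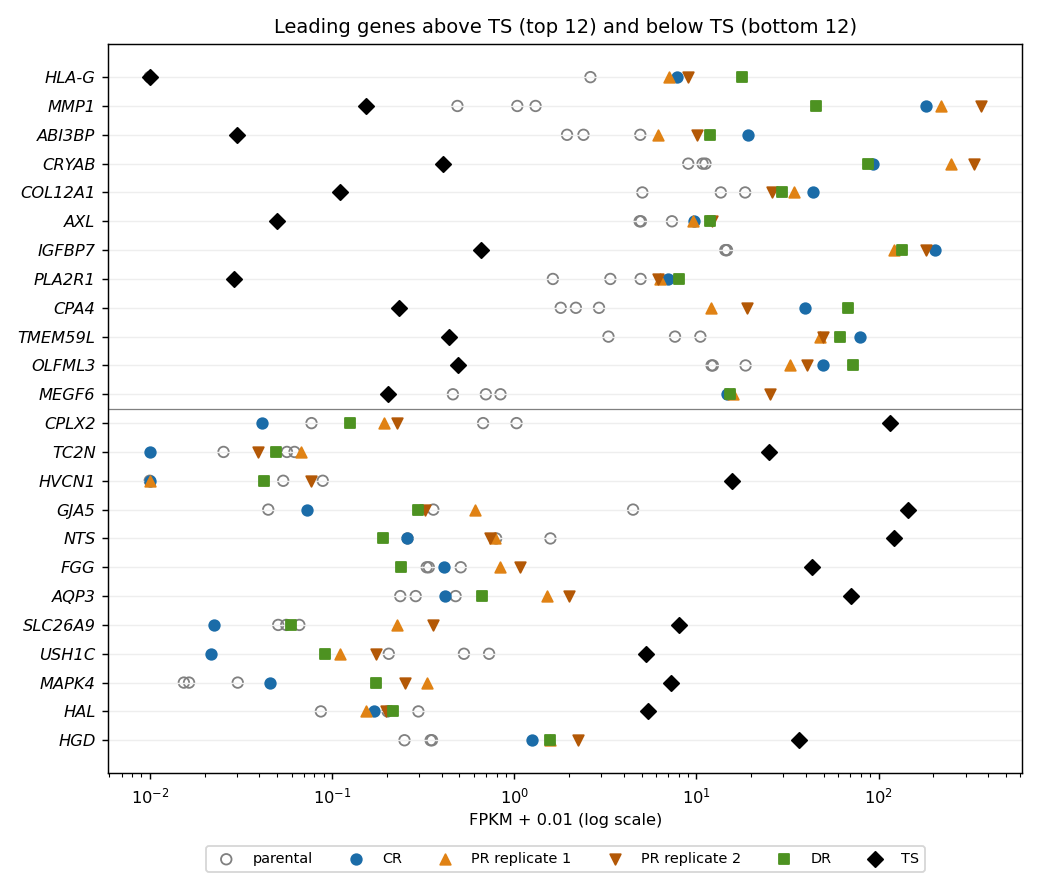
FPKM + 0.01 on a log axis for the 12 leading genes above TS (top) and the 12 below TS (bottom) in the 4 drug-survived libraries, the TS library (black diamonds) and the 3 parental libraries (open circles). Drug-survived and TS values do not overlap for any of these genes, as their choice required, and all parental values of the lower 12 genes lie below TS.

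The genes furthest below TS were far lower in both drug-survived and parental cells. CPLX2, a complexin that clamps vesicle fusion in neurons, was at an FPKM of 116 in TS cells, between 0.0313 and 0.218 in drug-survived cells and between 0.0672 and 1.02 in parental cells. Its log2 fold change was -9.84 ± 0.62 (edgeR adjusted p = 0.00154). NTS, the precursor of the neuropeptide neurotensin, stood at 122 in TS cells, at 0.247 in CR, 0.771 and 0.725 in PR and 0.181 in DR cells, and at 0.25 to 1.57 in parental cells. All 4 drug-survived values were far below TS and within the parental range or under it (log2 fold change -8.15 ± 0.57, edgeR adjusted p = 0.00177).

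GJA5, a gap junction protein, had an FPKM of 144 in TS cells, 0.0627 to 0.598 in drug-survived cells and 0.0347 to 4.48 in parental cells. With CR, PR, DR, TS and parental libraries as groups GJA5 was no longer called, in the same direction. AQP3, a channel for water and glycerol, had 70.7 in TS cells and 0.408 to 2 in drug-survived cells, and FGG, the fibrinogen gamma chain, had 43 and 0.228 to 1.06. HGD, an enzyme of tyrosine breakdown, was at 36.4 in TS cells, 1.25 to 2.22 in drug-survived cells and 0.24 to 0.344 in parental cells. The others were TC2N, HVCN1, SLC26A9, USH1C, MAPK4 and HAL, with log2 fold changes from -5.06 to -9.72.

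Genes of cell division were lower in drug-survived cells. All 36 genes of DNA replication were called lower, and 34 of 35 genes of mitosis were, where 10.1% of all genes tested were called lower. The median difference on log2(FPKM + 1) was -1.97 for replication and -3.16 for mitosis, against 0.057 over all genes tested. With the form of the library name as a covariate 5 and 17 genes were called, and without DR cells 29 and 20. For all called genes of both lists the parental mean was nearer to TS.

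The replication list holds the MCM helicase, origin factors, polymerases and the enzymes that make nucleotides. CDC45, which travels with the helicase, was at an FPKM of 2.74 in CR, 3.65 and 0.845 in PR and 2.19 in DR cells and at 20.2 in TS cells (log2 fold change -3.21 ± 0.59, edgeR adjusted p = 0.0156). RRM2, the regulated subunit of ribonucleotide reductase, was at 12.1, 22.9, 3.79 and 9.86 in the same order and at 85 in TS cells (-2.92 ± 0.7, edgeR adjusted p = 0.0315). PR replicate 1 was highest and PR replicate 2 lowest for both, and no value reached that of TS cells. Thymidine kinase TK1 and the origin factor MCM10 had log2 fold changes of -2.94 and -3.02.

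The mitosis list holds kinases, kinetochore and spindle proteins and the ubiquitin enzymes that end mitosis. AURKA, the kinase of spindle poles, was at an FPKM of 7.47 in CR, 14.5 and 7.3 in PR and 10 in DR cells and at 139 in TS cells. The groups did not overlap, with the highest drug-survived value in PR replicate 1, and the log2 fold change was -3.92 ± 0.34 (edgeR adjusted p = 0.00304). CENPF, a kinetochore protein, was at 0.572, 4.27, 0.595 and 0.61 in CR, PR replicate 1, PR replicate 2 and DR cells and at 22.8 in TS cells. Here PR replicate 1 stood above the other drug-survived libraries and was still below TS (-4.05 ± 1.01, edgeR adjusted p = 0.0357). HMMR, a spindle-associated hyaluronan receptor, and UBE2C, the ubiquitin enzyme of the anaphase-promoting complex, had log2 fold changes of -4.11 and -3.83. MKI67, the antigen used to count dividing cells, was at 1.01, 6.15, 0.655 and 1.22 and at 25.2 in TS cells (-3.61 ± 0.97, edgeR adjusted p = 0.0447). CDC20, the activator of the anaphase-promoting complex, was the member not called, with a log2 fold change of -3.5 and an adjusted p of 0.061.

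The PR libraries differed in their remaining mitotic signal. The mean log2(FPKM + 1) of the mitosis list was 2.92 in PR replicate 1 and 1.39 in PR replicate 2, with 1.54 in CR, 1.63 in DR and 4.92 in TS cells. Between the PR replicates, 148 genes were more than 2-fold apart. Without PR replicate 1 all 35 mitosis genes were called lower.

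Promoters of these lists are shown, since both lists fell as a whole. In known biology, the cell cycle homology region (TTTGAA), often beside a CCAAT box, holds the promoters of mitotic genes silent in resting cells, and E2F factors bind sites such as TTTCCCGC and TTTGGCGC in promoters of replication genes. RefSeq windows of 300 bases (250 before to 50 after an annotated start, GRCh38.p14) were searched on both strands. The stretches below are the last 80 bases before the start, on the strand of the gene, with TTTGAA and CCAAT or their complements in capitals for the mitosis genes. They were picked from windows that hold the letters.

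HMMR, chr5:163460552-163460631, plus strand: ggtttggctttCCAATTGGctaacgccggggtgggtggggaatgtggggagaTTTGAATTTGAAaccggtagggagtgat
MKI67, chr10:128126424-128126503, minus strand: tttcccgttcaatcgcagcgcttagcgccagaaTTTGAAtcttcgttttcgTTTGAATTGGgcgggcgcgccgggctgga
PLK1, chr16:23678809-23678888, plus strand: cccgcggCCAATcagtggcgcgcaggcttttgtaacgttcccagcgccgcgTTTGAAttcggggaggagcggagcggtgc
CCNB2, chr15:59105066-59105145, plus strand: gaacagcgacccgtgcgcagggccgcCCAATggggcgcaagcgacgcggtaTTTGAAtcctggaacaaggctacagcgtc
CDC20, chr1:43358901-43358980, plus strand: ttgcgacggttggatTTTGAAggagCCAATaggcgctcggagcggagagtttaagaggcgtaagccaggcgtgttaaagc

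In the replication genes, capitals mark TTTCCCGC or TTTGGCGC or a complement.

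CDC7, chr1:91501032-91501111, plus strand: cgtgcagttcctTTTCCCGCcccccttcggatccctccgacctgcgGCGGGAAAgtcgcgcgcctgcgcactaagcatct
CDT1, chr16:88803709-88803788, plus strand: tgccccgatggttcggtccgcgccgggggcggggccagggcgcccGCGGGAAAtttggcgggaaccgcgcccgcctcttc
GINS2, chr16:85688955-85689034, minus strand: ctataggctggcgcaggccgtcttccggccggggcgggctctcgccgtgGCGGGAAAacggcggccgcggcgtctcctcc
PCNA, chr20:5126623-5126702, minus strand: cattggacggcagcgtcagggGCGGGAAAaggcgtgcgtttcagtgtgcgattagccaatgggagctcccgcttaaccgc
TYMS, chr18:657573-657652, plus strand: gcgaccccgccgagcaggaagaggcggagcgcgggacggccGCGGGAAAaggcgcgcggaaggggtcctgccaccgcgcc

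Of the mitosis genes, 29 had a window, and 21 of them (72.4%) held TTTGAA, compared with 14.6% of the 14700 tested genes that had one. CCAAT was held by 23 (79.3%), compared with 41.6%. Of 33 replication genes with a window, 18 (54.5%) held an E2F sequence, compared with 3.96% of tested genes, and 2 (6.06%) held TTTGAA. Counted over all tested genes, 22.7% of 582 genes with an E2F sequence were called lower and 7.04% higher, and 11.1% and 10.8% of the 14118 genes without one. Without the genes of both lists, 19.9% of 562 genes with an E2F sequence were called lower. For TTTGAA the shares called lower were 13.9% with and 11.1% without, and 13% with it outside both lists. For CCAAT they were 13.3%, 10.3% and 12.7% in the same order. A match of letters is not a bound site.

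The called genes whose promoters are shown fell by different amounts, and CDC20 was not called. CCNB2, a mitotic cyclin, and PLK1, a mitotic kinase, had log2 fold changes of -3.71 and -3.59 (edgeR adjusted p = 0.0166 and 0.0364). CDT1 and GINS2, which load and activate the helicase, had log2 fold changes of -2.61 and -2.62. PCNA, the sliding clamp of the polymerases, fell by 1.02 on the log2 scale, from an FPKM of 177 in TS cells to between 83.9 and 107 in drug-survived cells. CDC7, a kinase that fires origins, and TYMS, which makes thymidylate, had log2 fold changes of -1.41 and -1.36.

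**Figure D3:**
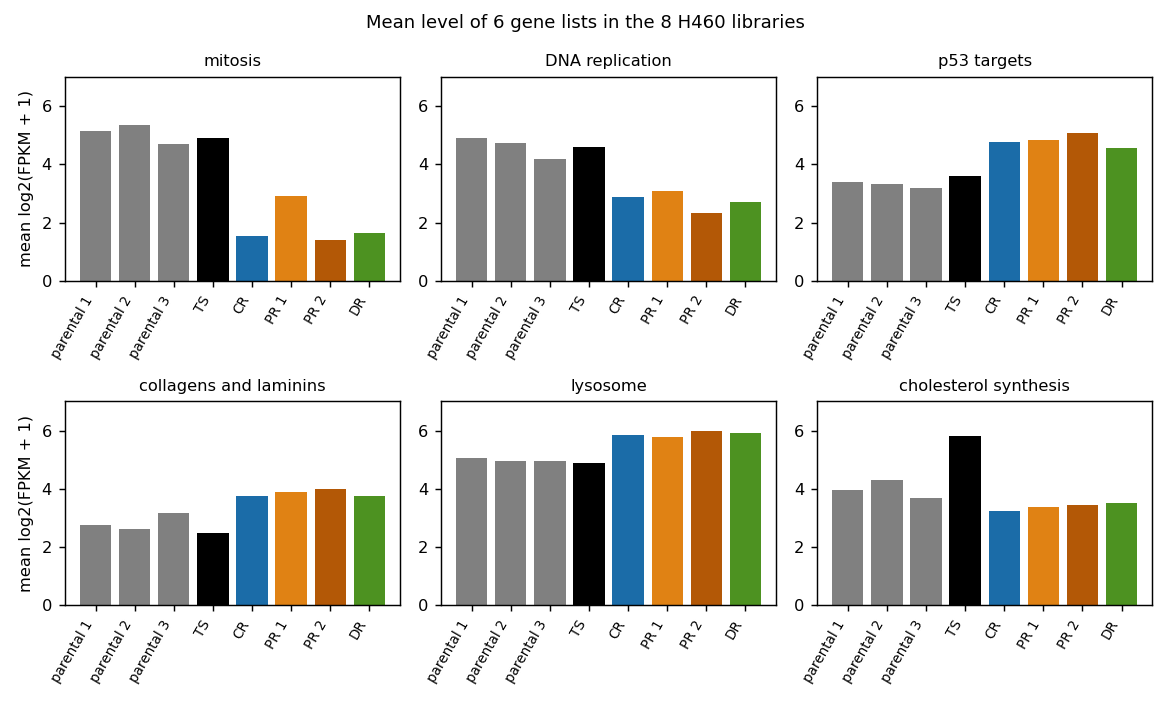
Bars give the mean log2(FPKM + 1) of 6 gene lists in each of the 8 H460 libraries (parental grey, TS black, drug-survived colored), with all axes from 0 to 7. For mitosis, DNA replication, p53 targets and lysosome the TS bar resembles the parental bars, whereas for cholesterol synthesis TS (5.8) stands above both the parental (3.68 to 4.3) and the drug-survived libraries (3.24 to 3.5).

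Targets of p53 were higher in drug-survived cells. Of 30 targets 15 were called higher and none was called lower, where 10.2% of all genes tested were called higher, and 5 were called with the form as a covariate. The median difference was 1.03 on log2(FPKM + 1). CDKN1A, the CDK inhibitor p21, was at an FPKM of 654 in CR, 343 and 498 in PR and 404 in DR cells, 53.2 in TS cells and 20.7 to 33 in parental cells. Every drug-survived value was above TS, highest in CR cells, and the log2 fold change was 3.05 ± 0.51 (edgeR adjusted p = 0.0125). TP53I3, a quinone oxidoreductase, was at 54.1, 77.7, 105 and 69.1 and at 6.52 in TS cells (3.34 ± 0.37, edgeR adjusted p = 0.00498). SPATA18, a mitochondrial quality factor, and TP53INP1 had log2 fold changes of 3.03 and 2.54. GDF15, a secreted stress factor, and MDM2, the ligase that degrades p53, had 2.17 and 1.69.

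Among the targets not called were BAX (0.38), a pore former of apoptosis, and CCNG1 (-0.42), the target with a negative value.

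Cholesterol synthesis set the TS cells apart. Of 20 enzymes from acetoacetyl-CoA to cholesterol, 19 were called lower in drug-survived cells, and the same number was called without any single drug-survived library. With the form of the library name as a covariate 18 were called. The median difference was -2.56 on log2(FPKM + 1), and it lay between -2.44 and -2.72 in the 4 libraries. For 17 of the 19 enzymes the parental mean was nearer to the drug-survived cells, in contrast to the cell cycle lists.

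ACAT2, which joins the first acetyl units, was at an FPKM of 5.66 in CR, 8.49 and 6.72 in PR and 7.53 in DR cells and at 122 in TS cells, with 27.2 to 41.7 in parental cells (log2 fold change -4.25 ± 0.2, edgeR adjusted p = 0.000969). HMGCS1, which makes HMG-CoA, was at 5.81, 8.04, 7.79 and 7.1, at 104 in TS cells and at 7.99 to 13.4 in parental cells (-4.06 ± 0.18, edgeR adjusted p = 0.000969). The drug-survived values of both genes lay close to each other and far from TS. EBP and MVD, a sterol isomerase and mevalonate diphosphate decarboxylase, had log2 fold changes of -3.42 and -3.21. The enzyme not called was PMVK, with an FPKM of 25.7 to 38.5 in drug-survived and 32.1 in TS cells (-0.04 ± 0.29, edgeR adjusted p = 0.941).

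**Figure D4:**
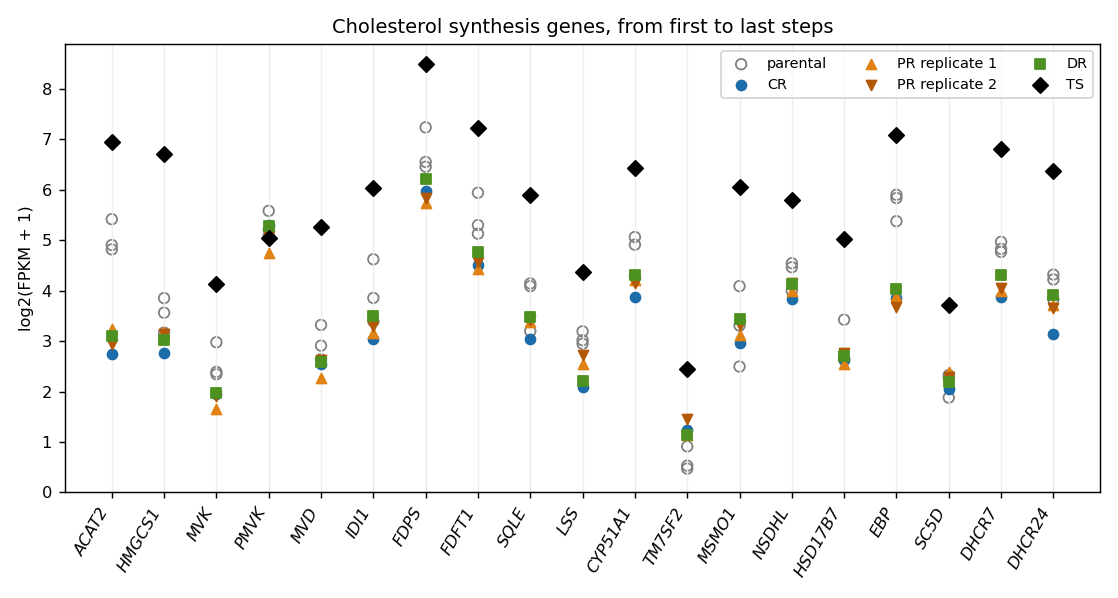
Level as log2(FPKM + 1) of 19 of the 20 cholesterol synthesis genes, roughly in pathway order, in drug-survived (colored), TS (black diamonds) and parental (open circles) libraries. TS is the highest of all 8 libraries for each gene but PMVK.

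Cholesterol genes are switched on by the transcription factors SREBP1 and SREBP2, which are released when membranes hold little sterol. Of 17 tested genes of sterol sensing, uptake and fatty acid synthesis, 15 were called lower (8 with the covariate), with a median difference of -1.55. Unlike the synthesis enzymes, these genes were split by the parental mean. It was nearer to TS for 7 of the 15 and nearer to the drug-survived cells for 8. INSIG1, which holds SREBPs back in the endoplasmic reticulum, was at an FPKM of 2.87 in CR, 4.97 and 5.84 in PR and 4.02 in DR cells and at 64.3 in TS cells (log2 fold change -4 ± 0.26, edgeR adjusted p = 0.00154). It was lowest in CR cells, and the groups did not overlap. The sterol carrier STARD4 and TMEM97 had log2 fold changes of -2.62 and -2.81, and fatty acid synthase FASN and the desaturase SCD had -2.34 and -2.57.

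SREBF2, the gene of SREBP2, was called lower (-1.57 ± 0.19, edgeR adjusted p = 0.00594), with an FPKM of 11.8 to 15.7 in drug-survived and 37.6 in TS cells. SREBF1 was at 21.9 to 27.5 and 22.1 (-0.05 ± 0.24, edgeR adjusted p = 0.891), and its sign changed with the settings. FADS2, a desaturase, was the other tested gene not called (0.11).

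Of 7 genes of sterol export 3 were called higher and none was called lower, and PLTP (-1.62) and NR1H3 (-0.29) had negative values and were not called. ABCG1, a sterol exporter, had no read in TS cells and 671 to 1260 in drug-survived cells, and was at least 264-fold higher with 3 reads taken for TS. ABCA1, which loads cholesterol onto apolipoproteins, was at an FPKM of 0.442 to 1.12 against 0.0525 in TS cells (log2 fold change 3.47 ± 0.69, edgeR adjusted p = 0.019). MYLIP, a ubiquitin ligase regulated by sterols, had a log2 fold change of 1.15 ± 0.32 with an adjusted p of 0.0492.

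SREBP binding sites include the letters CACNCCAC. Among list genes with a window, 2 of 15 cholesterol synthesis genes (13.3%) and 4 of 15 uptake and fatty acid genes (26.7%) held them on either strand, compared with 7.78% of tested genes. CCAAT was held by 13 (86.7%) and 11 (73.3%), compared with 41.6%.

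Secreted factors known from senescent cells were higher in drug-survived cells. Of 29 factors 12 were called higher and none was called lower (7 higher with the covariate). The median difference was 1.49, and it was larger in the PR libraries (1.7 and 2.11) than in CR and DR cells (0.85 in both). The list joins cytokines, proteases and their inhibitors. IL6, an inflammatory cytokine, was at an FPKM of 482 in CR, 423 and 718 in PR and 406 in DR cells and at 109 in TS cells (log2 fold change 2.07 ± 0.37, edgeR adjusted p = 0.0145). CXCL1, which attracts neutrophils, was at 606 to 1175 and 141 (2.55 ± 0.5, edgeR adjusted p = 0.0183).

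The plasminogen activators belong to the same list. PLAU, the urokinase, was at an FPKM of 125, 177, 236 and 168 and at 3.04 in TS cells (log2 fold change 5.71 ± 0.43, edgeR adjusted p = 0.00201). PLAT, the tissue-type activator, was at 97.3 in CR, 35.1 and 39.6 in PR and 59.9 in DR cells and at 0.934 in TS cells (5.85 ± 0.91, edgeR adjusted p = 0.0107). MMP10, a stromelysin that lies beside MMP1 on chromosome 11, had no read in TS cells and 124 to 390 in drug-survived cells, at least 75.2-fold higher. IL1A (-3.49) and INHBA (-0.89) had negative values and were not called.

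Of 28 collagens, laminins and fibronectin, 15 were called higher and 2 lower (7 and 0 with the covariate), with a median difference of 1.34. FN1, the fibronectin that fills the matrix, was at an FPKM of 4800 in CR, 4110 and 3320 in PR and 3690 in DR cells, at 611 in TS and at 171 to 911 in parental cells (log2 fold change 2.58 ± 0.5, edgeR adjusted p = 0.0172). It took 2.94% to 4.26% of all counted reads in drug-survived libraries and 0.56% in TS. COL16A1 and COL5A1 had log2 fold changes of 6.28 and 5.66 from low levels. COL1A1, the main chain of type I collagen, differed between the drugs, with 6.51 and 6.26 in PR, 0.783 in CR and 1.41 in DR cells against 0.051 in TS cells (5.95 ± 1.66, edgeR adjusted p = 0.0492). Of the collagen IV chains of basement membranes, COL4A1 (-1.61) and COL4A2 (-1.17) were called lower and COL4A5 (1.56) was called higher.

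Fewer genes of attachment were called. Of 28 integrin and focal adhesion genes 7 were called higher and none lower (3 higher with the covariate, and 4 without DR or without PR replicate 2). ITGA3, a laminin-binding integrin chain, was at an FPKM of 27.4, 33.1, 39.2 and 53.4 in CR, PR replicate 1, PR replicate 2 and DR cells, at 0.63 in TS cells and at 1.34 to 2.31 in parental cells (log2 fold change 5.77 ± 0.53, edgeR adjusted p = 0.00341). ITGA1, which binds collagen, was at 3.49 to 5.78 and 0.138 (5.05 ± 0.5, edgeR adjusted p = 0.00417). ITGB3 and ITGB6, both called, stayed at an FPKM of 0.369 or below in the compared libraries.

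Of 21 tested targets of YAP and SRF, which respond to cell spreading and actin tension, 7 were called higher and 3 lower (4 and 0 with the covariate). The share called lower was near the 10.1% of all genes tested. For 6 of the called targets the parental mean was nearer to the drug-survived cells, and for 4 it was nearer to TS. ANKRD1, CCN1 and NT5E had log2 fold changes of 5.3, 2.53 and 3.78. Of the cytoskeletal members, CNN2, CALD1 and ACTB were called lower (-1.35, -1.03 and -1.19) and ACTA2 was called higher (1.96). CCN2, a standard YAP target, was at an FPKM of 47.1 to 147 in drug-survived and 97.6 in TS cells and was not called.

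Of 16 genes induced by TGF-beta, 11 were called higher and 1 lower (6 and 0 with the covariate), with a median difference of 1.37. Several are matrix genes counted above. The latent binding protein LTBP2 and the coactivator TGFB1I1 had log2 fold changes of 4.36 and 4.51, and the feedback inhibitors SMAD7 and PMEPA1 had 3 and 4.07. The called member that was lower was COL4A1.

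Lysosomal genes were higher as a group. Of 29 genes 16 were called higher and none was called lower, and 28 of 29 had a positive difference. The median was 1.04, and it lay between 0.97 and 1.01 in the 4 libraries. The number called was 8 without DR or without PR replicate 2 and 2 with the covariate. PSAP, the precursor of the saposins that help break down sphingolipids, was at an FPKM of 1010 in CR, 997 and 1140 in PR and 968 in DR cells, at 302 in TS and at 242 to 294 in parental cells (log2 fold change 1.64 ± 0.3, edgeR adjusted p = 0.0148). HEXA, a hexosaminidase chain, was at 7.52, 6.79, 9.05 and 8.83 and at 0.263 in TS cells, below the parental 2.65 to 3.17 (4.77 ± 0.31, edgeR adjusted p = 0.00154). IDS and MAN2B1, which cut sulfate and mannose from glycans, had 2.17 and 1.9.

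Glucose and hypoxia genes were lower in part. Of 35 genes 12 were called lower and 1 higher (5 and 0 with the covariate, and 6 lower without PR replicate 2), with a median difference of -0.44, which was -0.05 with upper-quartile scaling and -0.61 on edgeR's log2 fold changes. ALDOC, an aldolase, was at an FPKM of 7.69 in CR, 8.13 and 8.39 in PR and 6.92 in DR cells and at 72.6 in TS cells (log2 fold change -3.34 ± 0.15, edgeR adjusted p = 0.000969). Hexokinases went in opposite directions. HK2 was at 2.29 to 4.78 and 18.8 in TS cells (-2.7 ± 0.33, edgeR adjusted p = 0.00593), and HK1 was at 28.9 to 35.8 and 11.8 (1.32 ± 0.22, edgeR adjusted p = 0.0117). Parental cells had 38.9 to 44.3 for HK1, so that the TS library was the low one. The glucose carrier SLC2A3 fell by 2.41 on the log2 scale. LDHA and VEGFA were not called, with log2 fold changes of 0.28 and 0.24. For 8 of the called genes the parental mean was nearer to the drug-survived cells, and for 5 it was nearer to TS.

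Amino acid genes driven by ATF4 were also lower in part. Of 23 targets 6 were called lower and 1 higher (1 and 0 with the covariate), with a median difference of -0.81. In single libraries the median lay between -0.81 and -0.35. On log2(FPKM + 1), 14 of the 23 had a negative difference and 9 a positive one. PHGDH and PSAT1, which make serine, had log2 fold changes of -2.34 and -1.62, the carrier SLC7A5 had -1.82 and MTHFD2, a mitochondrial folate enzyme, had -1.67. PHGDH was at an FPKM of 17 to 31.1 in drug-survived, 104 in TS and 97.1 to 112 in parental cells. The member called higher was SESN2 (0.86), which is a p53 target as well. ATF3 (1.94) and DDIT3 (1.13) had larger positive log2 fold changes and were not called.

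NRF2 targets had no common direction. Of 22 targets, which protect from oxidants, 3 were called higher and 3 lower (0 and 0 with the covariate). Both shares were near the 10.2% and 10.1% of all genes tested. The median difference was 0.02, turned to -0.03 with TMM scaling and -0.12 on edgeR's log2 fold changes, and was 0.43 with upper-quartile scaling. The drug exporter ABCC3 had a log2 fold change of 1.63, and the glutathione genes GCLM and GCLC had -1.2 and -1.01. AKR1C1 (1.22) has close paralogs that share sequence with it, so its counts are less sure. Of 18 MAPK feedback and early genes 2 were called lower, a share near the 10.1% of all genes tested, and none higher. The median difference was 0.35, with a positive value for 13 of 18. With DESeq2 5 were called higher and 2 lower, with limma 4 and 2, with PR replicate 2 left out 3 and 1, and with the covariate none. SPRY1, an inhibitor of the pathway, was at 0.109 to 0.295 and 2.21 in TS cells (-3.43 ± 0.49, edgeR adjusted p = 0.00894), and MYC was at 33.6 to 42.7 and 65.4 (-0.93 ± 0.23, edgeR adjusted p = 0.0338).

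Interferon-stimulated genes were higher in part. Of 27 genes 9 were called higher and 3 lower, with a median difference of 0.38. Of all genes tested 10.2% were called higher and 10.1% lower, so that the share called lower was near background. The number called higher was 2 without PR replicate 2, 5 without DR and 1 with the covariate. OASL, an antiviral protein, had no read in TS cells and 334 to 801 in drug-survived cells, at least 135-fold higher. IFIT2 was at an FPKM of 1.47 to 5.34 and 0.579 (log2 fold change 2.57 ± 0.72, edgeR adjusted p = 0.0489). OAS3, a sensor of double-stranded RNA, was lower, at 3.41 to 4.9 against 16.2 in TS and 12.9 to 18.7 in parental cells (-2.12 ± 0.23, edgeR adjusted p = 0.00479).

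The epithelial list showed no shift. Of 20 tested genes 1 was called higher (OCLN, 4.28) and 1 lower (CLDN7, -3.44), both at low FPKM, and the median difference was 0. Of 11 tested mesenchymal genes 3 were called higher (1 with the covariate) and none lower. They were S100A4, a calcium-binding protein of motile cells, at 1390 to 3130 and 277 (log2 fold change 3.03 ± 0.59, edgeR adjusted p = 0.0183), SNAI2 (2.16) and FN1. VIM, the intermediate filament of mesenchymal cells, was at 669 to 859 and 525 and was not called (0.53 ± 0.3, edgeR adjusted p = 0.242).

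Stem cell markers did not move together. Of 12 tested genes 3 were called higher and 1 lower, where 10.2% and 10.1% of all genes tested were. For all 4 called genes the parental mean was nearer to the drug-survived cells. CD44, a hyaluronan receptor, was at an FPKM of 109 in CR, 147 and 138 in PR and 131 in DR cells, at 8.25 in TS and at 36.8 to 39.9 in parental cells. The order drug-survived, parental, TS held in every library, and the log2 fold change was 3.88 ± 0.31 (edgeR adjusted p = 0.0021). CD24, a surface glycoprotein with related pseudogenes, was at 101 to 187, at 3.97 in TS and at 111 to 212 in parental cells (5.06 ± 0.59, edgeR adjusted p = 0.0054). The TS library was the one apart. LGR5 had no read in TS cells and 28 to 187 in drug-survived cells. SOX2, a pluripotency factor, was lower, at 0.468 to 1.11 against 2.21 (-1.76 ± 0.43, edgeR adjusted p = 0.0352).

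Of 11 reference genes 2 were called lower, among them HPRT1 (-1.09). The median difference of the list was -0.26, and it turned to 0.16 with upper-quartile scaling.

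The study named 3 genes that were higher than in control cells in all its drug-resistant and TS cultures, A549 included. It followed SEZ6L2, which alone was also higher in patient tumors than in normal samples. Between the states, which the study did not compare directly, 1 of the 3 passed the test. SEZ6L2, a membrane protein with sushi and CUB domains, was at an FPKM of 20.3 in CR, 26.9 and 31.3 in PR and 18.2 in DR cells and at 7.83 in TS cells, with 2.1 to 4.54 in parental cells. All 4 drug-survived values exceeded TS by more than 2-fold (log2 fold change 1.48 ± 0.29, edgeR adjusted p = 0.0187). STC1, the hormone stanniocalcin, was at 9.21, 21.5, 21.8 and 17.7 and at 11.1 in TS cells, so that CR cells were below and the others above (0.51 ± 0.41, edgeR adjusted p = 0.395). CHPF, which polymerizes chondroitin, was at 36.3 to 48.1 and 26 (0.56 ± 0.24, edgeR adjusted p = 0.146). These genes were chosen on these libraries, and their place above the parental cells is no independent evidence. EGFR, the receptor for the EGF in the TS medium, was at 10 to 14.7 and 8.32 and was not called (0.46 ± 0.31, edgeR adjusted p = 0.318).

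Tested genes were searched for drugs on opposite sides of TS where the highest compared library had an FPKM of at least 5. Each side had to be more than 2-fold from TS on log2(FPKM + 1), in both PR libraries for paclitaxel. The 1 gene found was PI3, the secreted elastase inhibitor elafin. It was at an FPKM of 28.2 and 27.2 in PR cells, 1.21 in CR, 5.41 in DR and 5.86 in TS cells. The PR and CR values lay on either side of TS, with DR beside it, and the difference between drugs was not tested.

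More genes were seen in drug-survived cells. At 1 read or more per 10000000 counted reads, 17338 genes were seen in TS cells, 18187 in CR, 19559 in DR and 20254 and 21456 in PR cells. The PR replicates had 3402 and 3930 long noncoding RNA genes, and the CR, DR and TS libraries had 2674, 2956 and 2259. Of 3683 long noncoding RNA genes tested, 370 (10%) were called higher and 69 (1.87%) lower. Protein-coding genes were called higher and lower at shares of 11.1% and 12.9%. Over all tested genes the median log2 fold change depended on the filter for low counts. It was 0.225 with the filter used here, 0.767 with no filter and 0.027 with 50 counts in every library. The part of the filter in the uneven calls of long noncoding RNA genes was not tested.

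**Figure D5:**
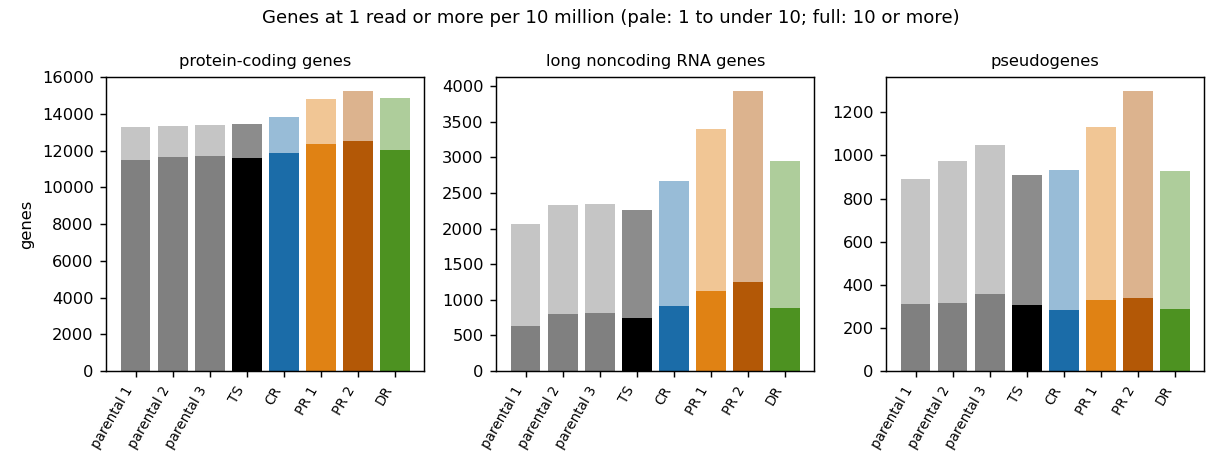
Number of genes at 1 read or more per 10000000 counted reads in each of the 8 H460 libraries, by gene class (pale part, 1 to under 10 reads; full part, 10 reads or more). PR replicate 2 has the highest bar in each class, and TS resembles the parental libraries.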

How the data were processed

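RNA of 10 cultures of H460 and A549 cells was sequenced, of which 5 H460 cultures were compared and 3 parental ones shown beside them. Reads were trimmed with Trimmomatic, aligned to GRCh38 with HISAT2 2.1.0 and assembled with StringTie 2.1.3b, according to the submitters' processing notes. The authors deposited read counts per gene without normalization, and FPKM values normalized for length and library size. TPM values were deposited as well and not used. The handling of reads shared between genes, and the use of strand, are not given in the sources used here, so overlapping, antisense and paralogous genes cannot be fully separated.

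Counts were fitted with edgeR 4.0.16 (TMM, filterByExpr, robust quasi-likelihood test) in R 4.3.3, 4 drug-survived against 1 TS library. SEs were derived from the F statistic. FPKM values were used as log2(FPKM + 1), and TMM was estimated on the 5 libraries. The fit was tested on simulated data, where fold changes were recovered but few of the changed genes were called, so that a gene not called may still differ. Doses and times come from the methods of the study. Libraries held 59499787 reads or more. Intervals and the limit of 3 reads cover counting error only. Of 1 TS library no spread can be given.

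The 21 gene lists and the rules were chosen with earlier results of these data known. The compared samples were set by their labels, also with those results known. Named are the 12 leading genes in each direction (called, more than 2-fold apart in every library, FPKM of at least 5 on the higher side), up to 4 called members of each list with the largest change and the called member most against its majority, 14 fixed genes, and genes with opposite drugs. Other genes, among them the members not called, were named after their values were seen. Alternatives were RLE and upper-quartile scaling, other filters, DESeq2 1.42.0, limma 3.58.1, parental libraries in the fit, the form of the library name as a covariate, each library left out, another pseudocount and protein-coding genes only. Genes were matched to RefSeq by Gene identifier. Python 3.11.15 and matplotlib 3.10.9 were used. Results of some genes are not reported here.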

Additional observations from a re-analysis of the deposited data

Results flagged for a closer look

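In groups of 4 drug-survived libraries, a library was singled out when its gap to the next one took more of the group's range than Dixon's critical value of 0.829 allows, which chance gives in about 1 of 20 groups. Of 131 genes and lists examined, 8 met it, a share near that chance rate. PR replicate 1 stood high for 3 cell division values and 1 other. It had an FPKM of 4.27 for CENPF (0.572 to 0.61 in the other 3 libraries), 19.2 for UBE2C (3.79 to 4.08) and 5.91 for CNN2 (4.77 to 4.86), and a mean log2(FPKM + 1) of 2.92 over the mitosis list (1.39 to 1.63). CENPF and UBE2C belong to the mitosis list, so the 3 cell division values are not separate.

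PR replicate 2 stood high for MEGF6, at 25.2 (14.8 to 15.8), and low for ABCG1, at 1.92 (2.81 to 2.95), and LGR5, at 0.0914 (0.352 to 0.407). CR cells stood low for SPRY1, at 0.109 (0.276 to 0.295). The difference between PR and CR cells for PI3 was 3.7 on log2(FPKM + 1), on opposite sides of TS, and that difference was not tested.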

How the results depend on the processing

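No paired analysis was possible because the TS, CR and DR libraries carry no replicate number that pairs them. The main fit called 4313 genes (2171 higher and 2142 lower). The counts of the other fits are each over all genes tested in that fit, not parts of the 4313. DESeq2 called 3381 genes higher, and a fit with CR, PR, DR, TS and parental libraries as groups called 2854 (1394 higher). With the form of the library name as a covariate 806 were called (548 higher and 258 lower). Leaving out each library gave 2662 to 4117 calls, 1363 to 2245 higher and 1299 to 2162 lower. The rule of more than 2-fold apart in all 4 libraries gave 2933 genes with a pseudocount of 0.1 (1899 higher and 1034 lower). With upper-quartile scaling it gave 1093 higher and 329 lower. For single drugs that pseudocount gave 5088 genes (CR), 6384 (PR) and 4842 (DR). The causes were not tested.

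SREBF1 turned positive with upper-quartile factors (0.14), 50 counts in every library (0.07), limma (0.14), parental libraries as groups (0.01), protein-coding genes only (0.01), and lay between -0.12 and 0.04 without single libraries. PI3 turned to -0.14 with the drugs as groups. Of 102 named genes called, 75 were called in every alternative but the covariate, and 0 turned direction. The planned scaling by counts per kilobase was not run, since no single gene length could be recovered, and FPKM divided by the TMM factor, chosen after seeing the data, took its place. The single TS library limits every result, since its own variation was not measured.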
